A study of Mus musculus with 8 samples.

Results

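The genes described here were 9 integrin subunits and the adhesion molecule Icam1, chosen by their symbols (Itgam, Itgax, Itgal, Itgb2, Itga4, Itgb1, Itgb7, Itgav, Itgb5 and Icam1), which make 10 of the 21051 genes listed in each table of the series. RNA was sequenced from tumor-associated macrophages (TAMs) that a CD45+F4/80+ gate had separated on day 14 from tumors of B16, a mouse melanoma line injected under the skin of the flank. The 4 TAM-WT libraries came from WT littermates and the 4 TAM-KO libraries from Colec11-/- mice, which lack collectin-11, a soluble lectin, in every cell. The mice were C57BL/6 males aged 8 to 10 weeks, both groups carried the same tumor line, and no agent distinguished the groups. Each group had 4 mice, so each library was taken as 1 mouse, which the labels do not state.

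The table of TAM-KO replicate 1 lacks all 10 genes. Its value for Itgal, 13.7 FPKM (a level scaled to gene length, explained below), was taken from the table of the whole series, which lists only genes that the study selected for a difference between the groups. That value enters the mean of Itgal but not its test. All other TAM-KO values of the members below are from replicates 2 to 4, so their tests set 4 TAM-WT against 3 TAM-KO libraries. For other genes, n = 4 in TAM-KO includes replicate 1. For Cd3g, Itga9, Icam2, Fn1, Irf1, Il1a, Il1b and Ifng that replicate's value was also from the whole-series table and outside the test. The 7 complete libraries held 16225362 to 17280267 reads on listed genes. The 10 genes had between 280 (Itgal) and 16374 (Itgam) estimated counts per library, so counting error was small beside each value. The genes of the sort gate were present in the libraries that list them, with Ptprc (CD45) at 39.1 to 88.7 FPKM in 8 libraries and Adgre1 (F4/80) at 182 to 239 FPKM in 7. The targeted gene Colec11 had 0 to 4 counts in each of the 8 libraries, TAM-WT included, so its RNA does not check the genotype labels.

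Integrins are receptors of 1 α and 1 β chain that bind matrix proteins or molecules on other cells and tie them to the actin cytoskeleton. Leukocytes carry the β2 integrins, which share the chain Itgb2 (β2, CD18). Among the members it pairs with Itgal (αL, CD11a, together LFA-1), Itgam (αM, CD11b, together Mac-1) or Itgax (αX, CD11c). LFA-1 and Mac-1 bind Icam1, Itga4 (α4) pairs with Itgb1 (β1) or Itgb7 (β7) and binds Vcam1, fibronectin or Madcam1, and Itgav (αV) pairs with Itgb5 (β5) and other β chains to bind matrix proteins and activate latent TGF-β.

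Of the 10 genes, 8 had an entry in the RefSeq table of sequences around gene starts on GRCm38.p6, and Itgal and Itgb2 were not in it. The 250 bases before the start are shown for the Icam1 gene because the genes of factors that read such letters are described below with it, and for Itgav because it was the only member that passed the test in the comparison of the groups. In Icam1 the capitals mark GGAANTTCC, the letters of an NF-κB site, 153 bases before the start. In Itgav they mark GAGGAA, the core letters read by the myeloid factor PU.1, 218 bases before the start, and again on the other strand, where it reads TTCCTC, 7 bases before it. The window of Itgav precedes a start that lies inside the annotated gene. The sequences are on the plus strand, at chr9:21015690-21015939 for Icam1 and at chr2:83724147-83724396 for Itgav.
Icam1: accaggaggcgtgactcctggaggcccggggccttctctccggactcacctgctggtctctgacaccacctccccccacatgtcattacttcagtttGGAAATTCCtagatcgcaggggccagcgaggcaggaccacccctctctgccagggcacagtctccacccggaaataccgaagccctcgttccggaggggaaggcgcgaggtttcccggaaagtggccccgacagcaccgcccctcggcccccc
Itgav: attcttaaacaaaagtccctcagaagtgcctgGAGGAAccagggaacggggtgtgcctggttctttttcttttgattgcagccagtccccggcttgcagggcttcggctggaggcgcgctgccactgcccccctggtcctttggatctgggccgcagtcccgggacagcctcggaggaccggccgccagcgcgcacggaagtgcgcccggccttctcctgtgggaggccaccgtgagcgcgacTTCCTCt

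Both strands were searched. GGAANTTCC stood in 0.813% of the 32851 windows of that length in the table, GAGGAA in 23.3% and the Sp1-type GGGCGG in 32.7%. Among the 8 windows of the members, GGAANTTCC stood only in that of Icam1, GAGGAA stood in 3 (Itgam, Itgav and Itgb1), and GGGCGG stood in 5 (Icam1, Itga4, Itgam, Itgb1 and Itgb5). The letters were chosen after the sequences had been seen, and a match describes the window and shows no binding.

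The levels of the 10 genes, in FPKM, the fragments per length of transcript scaled to the mapped fragments of a library, which allow genes of different length to be compared, fell into an upper and a lower set. In TAM-WT, Itgb2 at 218 FPKM, Itgam at 175 and Itgb1 at 165 stood above Itgb5 at 48.5, followed by Icam1 at 32.8, Itgax at 25, Itgav at 24.3, Itga4 at 16.5, Itgb7 at 12.7 and Itgal at 6.67. The ranges of neighbors in this order overlapped except between Itgb1 and Itgb5, between Itgb5 and Icam1 and between Itgav and Itga4. In replicates 2 to 4 of TAM-KO the mean of Itgb1 (156 FPKM) was above that of Itgam (144 FPKM), that of Itgav (34.4 FPKM) was above that of Itgax (31.9 FPKM), and that of Itgal (16.8 FPKM over these 3 libraries) was above that of Itgb7 (16.4 FPKM), and the ranges of each of these 3 pairs overlapped.

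**Figure D1:**
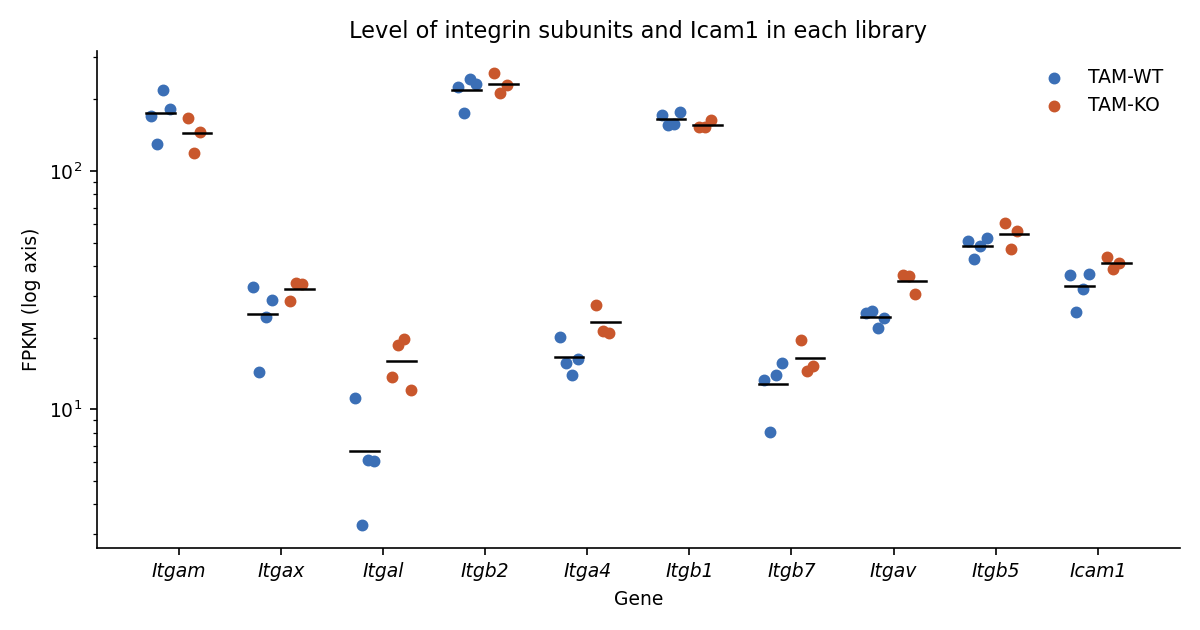
FPKM (log axis) of the 9 integrin subunits and Icam1 in each library, with TAM-WT and TAM-KO side by side, 1 point per library and a bar for the mean of the group. Itgb2, Itgam and Itgb1 lie above 100 FPKM in every library plotted, and the points of the groups are apart for Itgal, Itga4, Itgav and Icam1.

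Itgav, which at 1.31-fold had a small change, was the only member that passed the test across all genes. In TAM-WT it was at 25.3, 25.9, 22 and 24.2 FPKM, and in TAM-KO at 36.6, 36.3 and 30.4 FPKM. Each of these 3 TAM-KO values was above every TAM-WT value. The means were 24.3 ± 1.73 (SD, n = 4) and 34.4 ± 3.51 FPKM (SD, n = 3), and the log2 fold change of TAM-KO over TAM-WT was 0.39 (SE 0.07, edgeR adjusted p = 0.0229). In bulk RNA, fewer cells of a type and less RNA per cell cannot be told apart, here and in the results that follow. Leaving out TAM-WT replicate 3 gave 0.38 (edgeR adjusted p = 0.0723), leaving out TAM-KO replicate 2 gave 0.38 (0.0895), and leaving out TAM-KO replicate 3 gave 0.36 (0.0864).

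Its partner Itgb5 was at 50.6, 42.8, 48.4 and 52.4 FPKM in TAM-WT and at 60.2, 47.2 and 55.8 FPKM in TAM-KO. The groups overlapped. The log2 fold change of 0.05 (SE 0.13, edgeR adjusted p = 0.825) was -0.03 without TAM-WT replicate 2. The ratio of Itgav to Itgb5 in FPKM was 0.505 ± 0.0693 (SD, n = 4) in TAM-WT and 0.640 ± 0.116 (SD, n = 3) in TAM-KO, a difference of 0.34 in mean log2 ratio (exact permutation p = 0.114, 0.171 adjusted over 6 ratios). Itgb3, the β3 chain that also pairs with Itgav, was at 2.79 ± 0.521 FPKM in TAM-WT (SD, n = 4) and 2.60 ± 0.156 FPKM in TAM-KO (SD, n = 3; log2 fold change -0.21, edgeR adjusted p = 0.39).

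Among the 3 members that are α chains of the β2 integrins, Itgal had the largest fold change, but its adjusted p stayed above 0.05. In TAM-WT it was at 11.2, 3.27, 6.15 and 6.06 FPKM, and in TAM-KO at 18.6, 19.8 and 12 FPKM, with 13.7 FPKM in replicate 1. All 4 values of TAM-KO were above those of TAM-WT, with TAM-WT replicate 1 close to TAM-KO replicate 4. The means were 6.67 ± 3.30 and 16 ± 3.77 FPKM (SD, n = 4 each), and the log2 fold change over 7 libraries was 1.22 (SE 0.35, a fold change of 2.33, edgeR adjusted p = 0.0612). With replicate 1 of TAM-KO filled in, the edgeR adjusted p was 0.0527. It was 0.0247 without TAM-WT replicate 1 (log2 fold change 1.56) and 0.0294 without TAM-WT replicate 2 (log2 fold change 0.98), and reached 0.177 at the highest when other libraries were left out.

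Itgam was at 169, 130, 217 and 182 FPKM in TAM-WT and at 167, 119 and 145 FPKM in TAM-KO. The groups overlapped, with the lowest value in TAM-KO replicate 3 and the highest in TAM-WT replicate 3, and the log2 fold change was -0.40 (SE 0.21, edgeR adjusted p = 0.229). Itgax was at 32.7, 14.3, 24.5 and 28.6 FPKM in TAM-WT and at 28.5, 33.8 and 33.5 FPKM in TAM-KO. TAM-WT replicate 2 had the lowest Itgax and the other libraries overlapped, with a log2 fold change of 0.23 (SE 0.25, edgeR adjusted p = 0.568). The common chain Itgb2 was at 224, 175, 243 and 231 FPKM in TAM-WT and at 256, 211 and 229 FPKM in TAM-KO. The groups overlapped, and the log2 fold change of Itgb2 was -0.02 (SE 0.15, edgeR adjusted p = 0.935), or 0.09 when the counts were scaled by library totals.

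Since these 3 member α chains share Itgb2, their shares of the FPKM summed over the 3 were set side by side. Itgam made up 84.8 ± 4.05% (SD, n = 4) in TAM-WT, from 79.4 to 88.1%, and 74.4 ± 4.76% (SD, n = 3) in TAM-KO, from 69.0 to 78.0%. The share of Itgax was 12 ± 2.72% (SD, n = 4) and 16.8 ± 3.22% (SD, n = 3), and the share of Itgal was 3.18 ± 1.39% (SD, n = 4) and 8.83 ± 2.61% (SD, n = 3). Itgam thus led in each library, and the ranges of the groups did not overlap for Itgam or Itgal. The summed α chains came to 0.938 ± 0.0724 of Itgb2 in TAM-WT (SD, n = 4) and 0.828 ± 0.00981 in TAM-KO (SD, n = 3). FPKM of RNA is no measure of paired receptor at the surface.

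The ratio to Itgb2 tests whether an α chain moved differently from its partner within a library. For Itgam it was 0.755, 0.744, 0.896 and 0.787 in TAM-WT and 0.651, 0.563 and 0.635 in TAM-KO. The groups did not overlap, the difference in mean log2 ratio was -0.37, and the exact permutation p was 0.0286, the smallest that 4 against 3 libraries can give, or 0.0857 adjusted over the 6 ratios. For Itgal the ratio was 0.030 ± 0.0136 (SD, n = 4) and 0.0729 ± 0.0206 (SD, n = 3), a difference of 1.34 in mean log2 ratio (exact permutation p = 0.0571, adjusted p = 0.114). For Itgax it was 0.113 ± 0.0278 (SD, n = 4) and 0.139 ± 0.0252 (SD, n = 3), a difference of 0.31 (exact permutation p = 0.286, adjusted p = 0.343). None of the 6 ratios passed after adjustment, and 2 of them, Itgam/Itgb2 and Itga4/Itgb1, had an exact permutation p under 0.05 before it. Both stood at the smallest possible p of 0.0286, and adjustment over the 6 ratios still put them at 0.0857. With so few libraries hardly any ratio could pass after adjustment, so this outcome does not show that the ratios were alike.

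**Figure D2:**
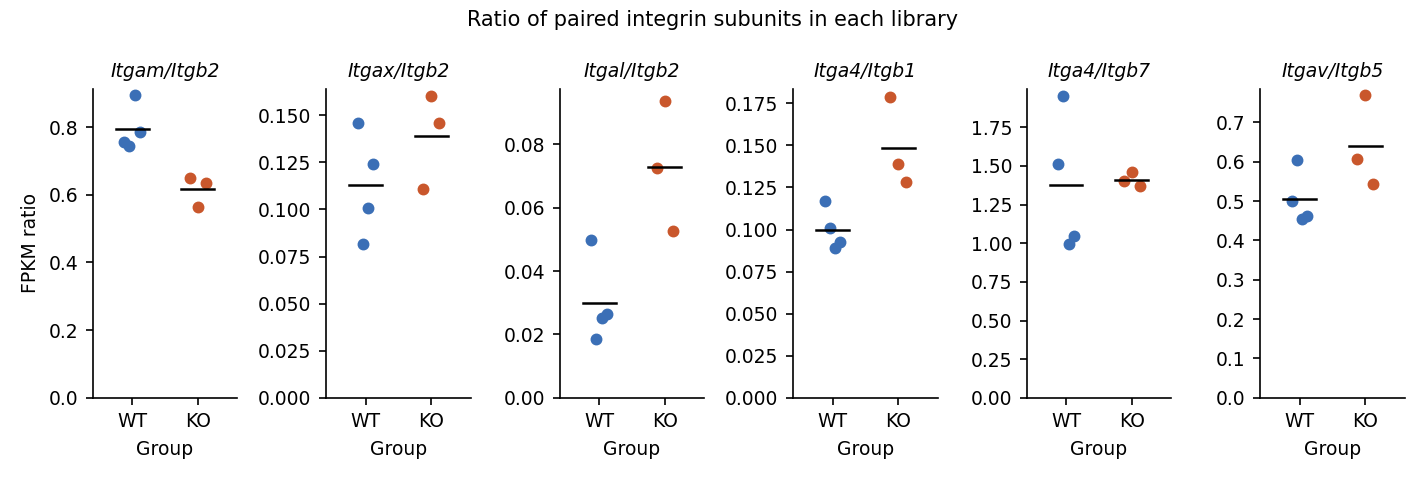
FPKM ratio of an α chain to its β partner in each library for the 6 pairs tested, 4 TAM-WT and 3 TAM-KO points a pair, with a bar for the mean of the group. The groups are apart for Itgam/Itgb2, Itgal/Itgb2 and Itga4/Itgb1 and overlap for Itgax/Itgb2, Itga4/Itgb7 and Itgav/Itgb5.

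Itga4 was at 20.2, 15.7, 13.9 and 16.3 FPKM in TAM-WT and at 27.3, 21.3 and 20.9 FPKM in TAM-KO. The groups did not overlap, with TAM-WT replicate 1 just under TAM-KO replicate 4, and the log2 fold change was 0.38 (SE 0.12, a fold change of 1.30, edgeR adjusted p = 0.0816). It was 0.47 without TAM-WT replicate 1 (edgeR adjusted p = 0.0466). Itgb1, the β chain shared by many matrix receptors, was at 172, 155, 157 and 176 FPKM in TAM-WT and at 152, 153 and 163 FPKM in TAM-KO. Its values overlapped and lay within a narrow span, with a log2 fold change of -0.19 (SE 0.09, edgeR adjusted p = 0.212). Itgb7 was at 13.3, 8.06, 14.0 and 15.6 FPKM in TAM-WT and at 19.5, 14.5 and 15.2 FPKM in TAM-KO. These overlapped too, with TAM-WT replicate 2 the lowest, and the log2 fold change was 0.25 (SE 0.23, edgeR adjusted p = 0.496).

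The ratio of Itga4 to Itgb1 was 0.117, 0.101, 0.089 and 0.0927 in TAM-WT and 0.179, 0.139 and 0.128 in TAM-KO. All 3 TAM-KO values were above the 4 TAM-WT values, with a difference of 0.57 in mean log2 ratio (exact permutation p = 0.0286, adjusted p = 0.0857). The ratio of Itga4 to Itgb7 was 1.38 ± 0.446 (SD, n = 4) and 1.41 ± 0.0482 (SD, n = 3). Its difference of 0.09 (exact permutation p = 0.886, adjusted p = 0.886) was -0.05 without TAM-WT replicate 3 and -0.02 without TAM-WT replicate 4.

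Icam1, the ligand that LFA-1 and Mac-1 bind on other cells and that macrophages also carry, was at 36.7, 25.7, 31.8 and 37.1 FPKM in TAM-WT and at 43.5, 38.6 and 41.2 FPKM in TAM-KO. The groups were apart in FPKM by a small margin, with means of 32.8 ± 5.31 (SD, n = 4) and 41.1 ± 2.41 FPKM (SD, n = 3). In CPM, the counts scaled to a library size adjusted by TMM, they overlapped, at 59.2 to 91.3 in TAM-WT and 85.7 to 95.3 in TAM-KO. The log2 fold change was 0.22 (SE 0.14, edgeR adjusted p = 0.327).

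Over all genes, 1218 of 12412 passed the edgeR test at an adjusted p of at most 0.05, which is 9.81%, with 4.58% higher and 5.24% lower in TAM-KO. Of the members 1 of 10 passed, a share close to this background, and all 10 had passed the filter on low counts. With a fold change of at least 2 as well, the call rule of the study, 2.53% of all genes passed and none of the members. The fold changes were above 1 for 7 of the 10, with a median log2 fold change of 0.22 beside 0.00 over all genes tested. In FPKM, 4 members (Itgal, Itga4, Itgav and Icam1) had all TAM-KO values above all TAM-WT values, beside 16.9% of all genes tested, and none had them all below, beside 7.36%. In TMM-scaled CPM there were 3, without Icam1, beside 12.2%, and 0 below, beside 12.8%.

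The scaling and single libraries moved these counts. Of the genes called, 46.6% were higher in TAM-KO with TMM, 64.4% with library totals and 69.2% with limma on log2(FPKM + 1). Library totals shifted the median log2 fold change of the genes tested without TAM-KO replicate 1 from 0.01 to 0.11. In place of 1218 genes, 77 were called when TAM-KO replicate 2 was left out and 77 when replicate 3 of that group was. The number was 682 without its replicate 1. Among the TAM-WT libraries, leaving out replicate 3 gave 151 calls, replicate 4 gave 416 and replicate 2 gave 2755. Of the members, edgeR called 3 without TAM-WT replicate 1 and 2 without TAM-WT replicate 2. It called 0 when TAM-WT replicate 3 or either of replicates 2 and 3 of TAM-KO was left out, and with all libraries 3 members had an unadjusted p under 0.05, while DESeq2 called 3 higher and limma voom 3 higher and 1 lower.

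**Figure D3:**
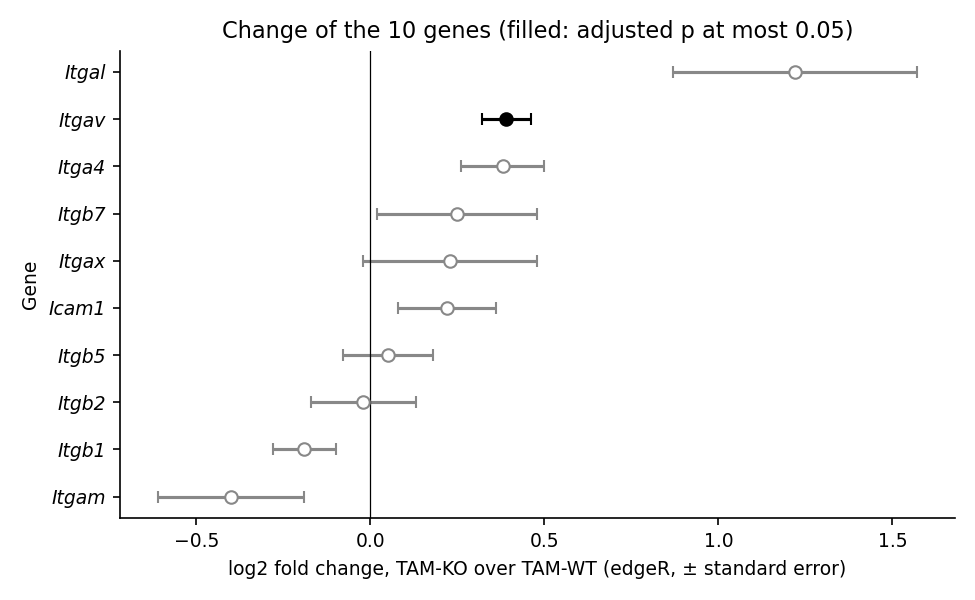
Log2 fold change of TAM-KO over TAM-WT for each of the 10 genes, with 1 SE to each side, from the edgeR fit on 4 TAM-WT and 3 TAM-KO libraries. Itgav (0.39) is the only gene past an adjusted p of 0.05, and Itgal has the largest change (1.22) and the largest SE (0.35).

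Itgal was set beside the markers of the other cells that a tumor sample could hold. The summed FPKM of 8 T cell genes was 17.4, 2.12, 3.11 and 3.17 over the TAM-WT libraries, and TAM-KO had 51.8, 41.6 and 19.3, in the order of the replicates. The groups did not overlap, and the libraries with the most and the least T cell RNA in TAM-WT, replicates 1 and 2, were also those with the most and the least Itgal, as the plot of marker sums shows. This place was not particular to Itgal. TAM-WT replicate 2 was also the lowest of its group in Itgam, Itgax, Itgb2, Itgb1, Itgb7, Itgb5, Icam1 and Ptprc (39.1 FPKM), though not in Itga4 or Itgav. TAM-WT replicate 1 was also the highest of its group in Itgax and Itga4. Of the 8 T cell genes edgeR called 0 at the adjusted p, but 7 were higher at an unadjusted p under 0.05. DESeq2 called 3 of the T cell genes higher and limma voom 7. Cd3g, a chain of the T cell receptor complex, was at 1.28 ± 2.2 and 10.3 ± 4.5 FPKM (SD, n = 4 each). In TAM-WT, 2 of the 8 T cell genes were at 0 in replicate 2 and 2 in replicate 3. The NK cell sum overlapped, at 0.54 to 6.38 in TAM-WT and 5.83 to 16.9 in TAM-KO, and the 3 genes tested had a median log2 fold change of 2.59. Of these edgeR called Eomes higher, all 3 were higher at an unadjusted p under 0.05, and DESeq2 called 1 and limma voom 3 higher. Itgal is expressed by T cells, NK cells and monocytes as well as macrophages, and the part of these cells in its values was not tested.

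Monocyte genes also moved with the groups. Their sum over 7 genes was 222, 110, 219 and 255 FPKM in TAM-WT and 445, 475 and 323 FPKM in TAM-KO, without overlap. Ly6c2 and Plac8 were among the 3 of the 7 that passed the test, all 3 higher, while Ccr2 was at 47.0 ± 13.3 FPKM in TAM-WT (SD, n = 4) and 49.1 ± 6.35 FPKM in TAM-KO (SD, n = 3). F10 went the other way, at 32.3 ± 10.9 (SD, n = 4) and 23.3 ± 5.5 FPKM (SD, n = 3). Its log2 fold change was -0.59 (edgeR adjusted p = 0.234). At an unadjusted p under 0.05, 5 of the 7 were higher and 0 lower. DESeq2 called 4 higher and 0 lower, and limma voom 4 higher and 1 lower. Monocytes carry Itgam, Itgal and Itga4. The 9 macrophage genes summed to 7082 to 8829 FPKM in TAM-WT and 7958 to 8640 FPKM in TAM-KO, and edgeR called 0 of them. At an unadjusted p under 0.05, 1 was higher and 2 were lower, as with DESeq2, and limma voom called 1 higher and 3 lower.

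Melanoma genes, led by the pigment genes of B16 cells, had a sum of 2640, 4382, 2010 and 1958 FPKM in TAM-WT and 5057, 4742 and 3817 FPKM in TAM-KO. TAM-WT replicate 2 lay among the TAM-KO libraries in this sum. Its Itgav of 25.9 FPKM was the highest of TAM-WT and was below the 30.4 FPKM of TAM-KO replicate 4, the lowest value of that group. All 7 genes had a log2 fold change above 0, with a median of 0.59. The edgeR test called Sox10, while 6 were higher at an unadjusted p under 0.05, and DESeq2 called 5 and limma voom 7 higher. The platelet sum, at 1593 to 2225 FPKM in TAM-WT and 751 to 1490 FPKM in TAM-KO without overlap, was nearly all Pf4, a chemokine gene, at 1592 to 2224 and 749 to 1489 FPKM. The other 5 platelet genes had means under 1 FPKM in both groups. Of the 2 genes tested, edgeR called 0, and Pf4 had a log2 fold change of -0.71 (edgeR adjusted p = 0.0829) and Gp1ba of 0.12 (edgeR adjusted p = 0.775). An unadjusted p under 0.05, DESeq2 and limma voom each gave 1 lower. The sums overlapped for dendritic cells (8.03 to 19.6 and 11.4 to 12.8 FPKM), neutrophils (47.2 to 74.2 and 60.1 to 73.2), B cells (4.52 to 7.19 and 5.78 to 11), fibroblasts (2.37 to 7.04 and 3.34 to 5.15) and endothelial cells (8.19 to 12.5 and 11.1 to 16.7). Of these lists edgeR called Xcr1 and S100a8 higher. It called 0 of 2 B cell, 0 of 5 fibroblast and 0 of 5 endothelial genes, with 1 of each higher at an unadjusted p under 0.05. Among these 3 lists DESeq2 called 1 endothelial gene and limma voom 1 B cell and 1 fibroblast gene, all higher. Of the dendritic cell genes each of these tools called 1 higher and 1 lower, and of the neutrophil genes DESeq2 called 3 higher and 1 lower and limma voom 1 higher and 1 lower. The part of these cells in the members' values was not tested.

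**Figure D4:**
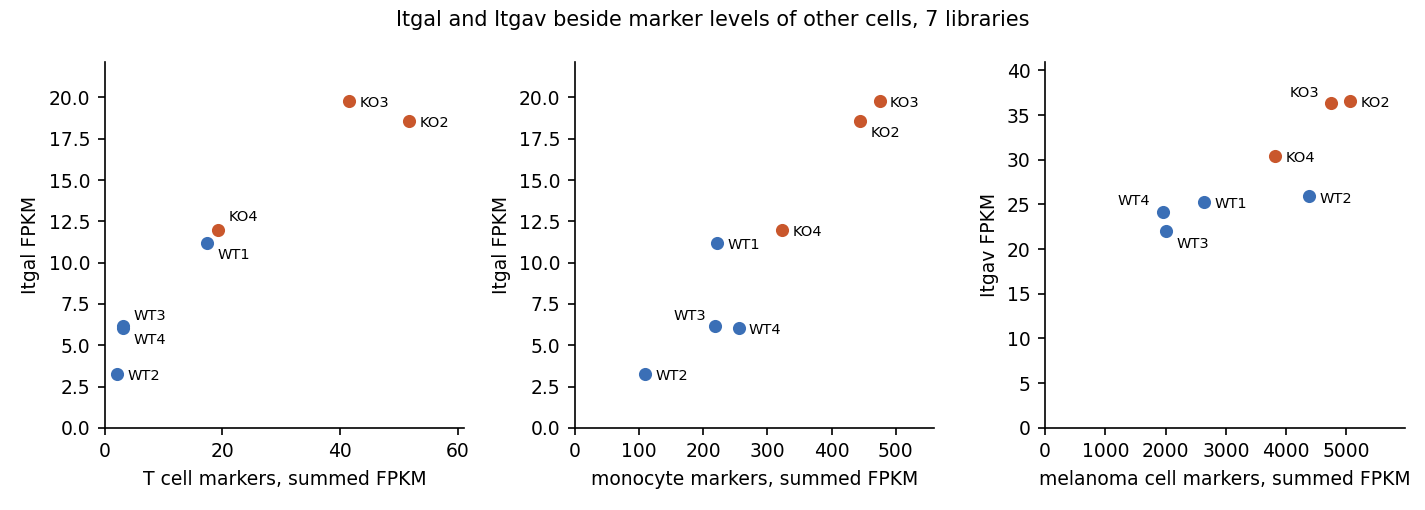
Itgal in FPKM against the summed FPKM of T cell genes and of monocyte genes, and Itgav against that of melanoma genes, 1 point for each of 7 libraries, which share their depth and sort. TAM-WT replicate 1 (11.2 FPKM) and TAM-KO replicate 4 (12 FPKM) lie close in Itgal and in T cell sum (17.4 and 19.3).

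Of the 18 other integrin subunits 12 passed the filter, and 1 was called higher and 0 lower, beside the 9.81% of all genes, with a median log2 fold change of 0.10. The gene called was Itga9 (α9), which pairs with Itgb1, at 10.3 ± 1.10 FPKM in TAM-WT and 14.8 ± 2.09 FPKM in TAM-KO (SD, n = 4 each, log2 fold change 0.49, edgeR adjusted p = 0.0186). Itga5, the fibronectin receptor chain, was at 45.5 ± 8.19 FPKM (SD, n = 4) and 46.1 ± 8.35 FPKM (SD, n = 3), with an edgeR adjusted p of 0.786. The laminin receptor chain Itga6 was at 21.4 ± 2.22 and 19.1 ± 1.23 FPKM, with an edgeR adjusted p of 0.158. Itga1, a collagen receptor chain, was at 3.12 ± 0.270 and 3.88 ± 0.668 FPKM, with an edgeR adjusted p of 0.331. Itgad, whose gene follows that of Itgax on chromosome 7, was low, at 0 to 0.88 FPKM in TAM-WT and 0.82 to 1.39 FPKM in TAM-KO. The groups overlapped, and its log2 fold change, the largest of the 12 tested subunits, was 1.95 (SE 0.84, edgeR adjusted p = 0.149).

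Of the 19 ligand genes 15 were tested, with 3 higher, 2 lower and a median log2 fold change of 0.10. Over all genes tested, 4.58% were called higher and 5.24% lower. Icam2, a second ligand of LFA-1, was at 5.41 ± 1.37 FPKM in TAM-WT and 13.0 ± 2.82 FPKM in TAM-KO (SD, n = 4 each, log2 fold change 1.31, edgeR adjusted p = 0.0138). The junction molecules F11r, which binds LFA-1, and Jam3, which binds Mac-1, were higher by 0.94 (edgeR adjusted p = 0.0393) and 0.60 (edgeR adjusted p = 0.0332) on the log2 scale. Of the matrix ligands, Fn1 and Spp1 fell. Fn1, fibronectin, was at 225 ± 91.8 and 89.0 ± 29.6 FPKM (SD, n = 4 each, log2 fold change -1.63, edgeR adjusted p = 0.0338), and Spp1, osteopontin, was at 1630 ± 661 and 558 ± 295 FPKM (SD, n = 4 each, log2 fold change -1.67, edgeR adjusted p = 0.0393). Tgfb1, whose latent form αV integrins bind, was at 204 ± 17 and 189 ± 24.8 FPKM (SD, n = 4 each, edgeR adjusted p = 0.258), and Vcam1, the ligand of α4β1, was at 32.6 ± 13.8 and 37.3 ± 11.2 FPKM (SD, n = 4 each, edgeR adjusted p = 0.849).

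Of 37 genes for linkers and activators, which tie integrin tails to actin or switch them on, 36 were tested. Of these, 3 were higher and 0 lower, beside 4.58% and 5.24% of all genes tested. The list had a median log2 fold change of -0.01. The genes called were the talin Tln2 (1.36 ± 0.232 and 2.05 ± 0.300 FPKM, edgeR adjusted p = 0.0362), the parvin Parva (4.51 ± 1.40 and 7.39 ± 1.06 FPKM, edgeR adjusted p = 0.0488) and the kinase Src (8.14 ± 2.56 and 13.4 ± 0.778 FPKM, edgeR adjusted p = 0.0403; SD, n = 4 each). The talin and kindlin that are most abundant here, Tln1 (117 ± 11.8 and 125 ± 12.9 FPKM, SD, n = 4 each) and Fermt3 (97.4 ± 9.21 with n = 4 and 96.5 ± 5.38 FPKM with n = 3), had edgeR adjusted p-values of 0.961 and 0.497. The adaptors Fcer1g and Tyrobp, which had the highest levels of the list, were at 1973 ± 218 and 1910 ± 74.4 FPKM and at 937 ± 91.6 and 879 ± 39.1 FPKM, with edgeR adjusted p-values of 0.453 and 0.187.

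Of 11 genes of cytokines and factors that can induce Icam1, 2 were higher and 1 was lower, beside 4.58% and 5.24% of all genes tested. The median log2 fold change of the list was -0.12. The factor gene Irf1 was at 34.9 ± 8.43 and 64.6 ± 11.6 FPKM (SD, n = 4 each, log2 fold change 0.82, edgeR adjusted p = 0.0488). The cytokine gene Il1a fell. It was at 22.1 ± 13.2 in TAM-WT and 4.1 ± 2.92 FPKM in TAM-KO (SD, n = 4 each, log2 fold change -3.05, edgeR adjusted p = 0.0362). Tnf was at 175 ± 81.2 and 74.7 ± 39.4 FPKM (SD, n = 4 each, edgeR adjusted p = 0.0865), Il1b was at 102 ± 44.9 and 63.7 ± 23.5 FPKM (SD, n = 4 each, edgeR adjusted p = 0.0829), and the NF-κB subunit Rela was at 42.7 ± 3.02 and 42.4 ± 2.46 FPKM (SD, n = 4 each, edgeR adjusted p = 0.422). Ifng had the largest rise of the list, at 0.653 ± 1.23 and 4.9 ± 2.52 FPKM (SD, n = 4 each, log2 fold change 2.94, edgeR adjusted p = 0.102). The 11 genes moved in different directions, 5 of them with a log2 fold change above 0. That of Icam1 was 0.22 and did not pass the test. Over the 4 lists together edgeR called 12 genes. Leaving out replicate 2 or replicate 3 of TAM-KO left 0 calls, while among the TAM-WT libraries leaving out replicate 3 gave 1, replicate 4 gave 5 and replicate 2 gave 30.

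**Figure D5:**
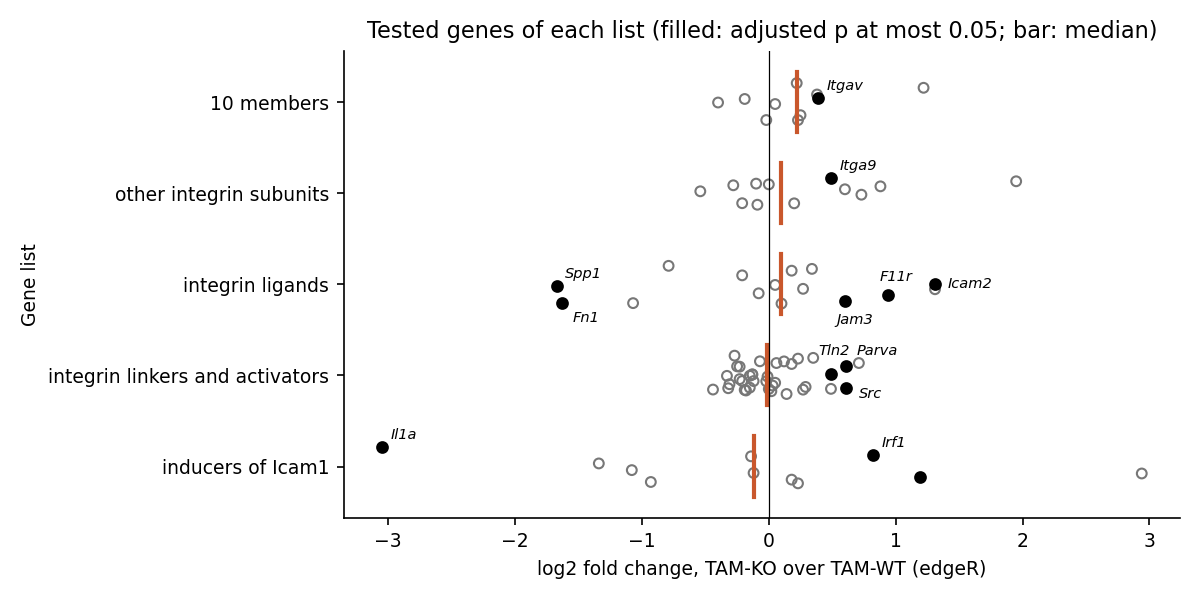
Log2 fold change of TAM-KO over TAM-WT for each tested gene of the 10 members and of the 4 lists, with a bar for the median of each list and filled points for an adjusted p of at most 0.05. The medians lie between -0.12 (inducers of Icam1) and 0.22 (the members), and Fn1, Spp1 and Il1a are the genes called lower.

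The patterns of the members over the 7 libraries were compared with those of 10809 genes by the root-mean-square difference of mean-centered log2 CPM. Nearest to Itgal were Socs1 (0.091) and Il18bp (0.181), nearest to Itgav were Ehbp1 (0.051) and Cplane1 (0.061), and nearest to Itga4 were Orai3 (0.062) and Stx16 (0.067). Nearest to Itgb1 were Ilk (0.029) and Actn4 (0.030), to Itgb2 Borcs6 (0.040) and Klf13 (0.054), and to Itgb5 Iqsec2 (0.037) and Flt3l (0.048). Nearest to Itgam were Arid3a (0.134) and Pag1 (0.137), to Itgax Nectin4 (0.126) and Dgkh (0.140), to Itgb7 Rrad (0.094) and Lilra6 (0.118), and to Icam1 Macf1 (0.042) and Plcb2 (0.043). No member was among the 2 nearest genes of another, which says little with so many genes compared. The differences also depend on how much a gene varied. Around its own mean this variation ran from 0.129 for Itgb1 to 0.823 for Itgal, so the differences cannot be compared between members.

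On GRCm38.p6 the member α chains of the β2 integrins lie on chromosome 7, Itgal at chr7:127296139-127335137, Itgam at chr7:128062640-128118491 and Itgax at chr7:128129526-128150657. Itgam and Itgax are neighbors, yet their log2 fold changes were -0.40 and 0.23, and neither passed the test. Itga4 (chr2:79255426-79333114) and Itgav (chr2:83722303-83806917) lie on chromosome 2. The other genes lie apart, Itgb2 at chr10:77530329-77565708, Itgb1 at chr8:128685654-128733579, Itgb7 at chr15:102215994-102233405, Itgb5 at chr16:33829665-33949338 and Icam1 at chr9:21015940-21028814. In the GENCODE M21 annotation, exons of Itga4 overlap Cerkl, those of Icam1 overlap Gm47079 and those of Itgav overlap Gm13684, each on the opposite strand, and those of Itgam overlap Gm49368 on the same strand. Whether the libraries keep the strand is not given in the sources used here. Reads from the stretches in Itga4, Icam1 and Itgav therefore cannot be told apart. In Itgam, strand would not tell the reads apart either, since that overlap is on the same strand.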

How the data were processed

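The libraries were made from total RNA and sequenced on the BGISEQ-500 platform. The submitters' processing notes list HISAT2 2.0.4, Bowtie2 2.2.5, RSEM 1.2.12 and the build GRCm38.p6. The expected counts, estimated per gene by RSEM, were deposited without normalization. FPKM values were deposited by the authors relative to gene length and mapped fragments of each library. TPM values were deposited too and were used only as an alternative for the ratios. The deposited table of the whole series also holds log2 ratios, p-values and q-values of the authors' own comparison and group means, which were not used.

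The table of TAM-KO replicate 1 lacks an unbroken run of 5311 of 21051 genes. In addition, 629 of its values, which belong to other lines, were left out. Of 4214 genes without a usable value there, the table of the whole series gives 1188. For 2808 genes in both tables, the counts of 2808 were exactly equal.

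After rounding, the expected counts went into the quasi-likelihood test of edgeR 4.0.16 under R 4.3.3, with TMM scaling, the filterByExpr filter and Benjamini-Hochberg adjustment over 12412 genes. Genes with a value in 8 libraries were fitted on 8, the others on 7. The planned fit used no replicate block. Ratios were compared by two-sided exact permutation tests (scipy 1.17.1) over 35 arrangements. On simulated data for this comparison with 12405 genes, 96% of 100 genes changed by 1 on the log2 scale and 100% of 100 changed by 2 were called, with 13 unchanged genes called. Each simulated gene was drawn independently, without shifts that many genes of a library share, and changed genes were taken from those with more counts. These shares check that the fit recovers such changes and do not measure its power on the real libraries. Alternatives were run with DESeq2 1.42.0 and limma 3.58.1, other scalings, filters and pseudocounts, and each library left out.

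Of the genes outside the members, those named were the called genes and the 2 of highest FPKM in each list, other integrin subunits of at least 1 FPKM, gate genes, markers and the 2 nearest patterns of each member. Exceptions, named after their values were seen, were Itgad, Cd3g, Ccr2, F10, Pf4, Gp1ba, Tln1, Fermt3, Rela, Ifng and Vcam1. The members and lists were chosen with earlier results of these data known. Among the called genes of the lists, some values are not reported here.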

Additional observations from a re-analysis of the deposited data

How the results depend on the processing

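Of the 180 values of single members under the alternatives, 156 kept their direction and their side of the threshold, 4 lost a call, 12 gained one and 8 changed sign. The 1 member called became 2 with library totals, 3 with DESeq2, 4 with limma voom, 2 with limma on log2(FPKM + 1) and 2 on log2(FPKM + 0.1), and 0 to 3 when 1 library was left out. The 1218 genes called became 2253 with DESeq2, 3680 with voom, 36 at an adjusted p of at most 0.01, 314 with a fold change of at least 2, and 77 to 2755 with 1 library left out. The 12 calls in the 4 lists became 22 with DESeq2, 35 with voom and 0 to 30 with 1 library left out. Itgal was called in 6 of 10 other settings, with edgeR on library totals (adjusted p = 0.0441), DESeq2 (0.00645), voom (0.00906), limma on log2(FPKM + 1) (0.0434) and log2(FPKM + 0.1) (0.0453) and the replicate block, and the adjusted p of Itga4 was 0.0396 with DESeq2 and 0.0283 with voom. Itgb1 was called lower with voom only, by limma (log2 fold change -0.25, adjusted p = 0.0279). The log2 fold change of Itgb2, -0.02, was 0.09 with library totals, 0.1 with limma on log2(FPKM + 1), 0.1 on log2(FPKM + 0.1), 0.06 without TAM-WT replicate 3, 0.02 without TAM-WT replicate 4 and 0.05 without TAM-KO replicate 3, within -0.13 to 0.06 over all libraries left out in turn. That of Itgb5, 0.05, was -0.005 with voom and -0.03 without TAM-WT replicate 2, within -0.03 to 0.15. The difference for Itga4/Itgb7 was -0.05 and -0.02 without TAM-WT replicate 3 and 4, within -0.05 to 0.28. The causes of these changes were not tested. The sources used here do not say whether the replicate numbers pair the libraries. The deviations of same-numbered libraries correlated at -0.35, 0.0293, -0.246 and 0.272, and those of libraries with different numbers at -0.33 to 0.401. So few values cannot decide whether libraries were paired. With the number as a replicate block 1080 genes were called, and the edgeR adjusted p was 0.0577 for Itgav (log2 fold change 0.39) and 0.0348 for Itgal (1.59). Itgal, at 280 counts in its lowest library, had the least depth of the members.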
